A study of Mus musculus with 36 samples.

Results

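The comparison described here is between wild-type (WT) mouse cortical neurons silenced for 7 h and for 2 h, with no KCl in either group. Silencing used TTX, a toxin that blocks voltage-gated sodium channels, together with APV, an antagonist of NMDA-type glutamate receptors. Libraries were taken by their titles: 4 RNA-seq libraries titled as 6 h controls had 7 h of TTX/APV, and 5 WT RNA-seq libraries with no added word in the title had 2 h. These 9 libraries are part of 36 in the series, of which 24 are RNA-seq. The series studies Actl6b, a neuron-specific subunit of the BAF chromatin remodelling complex, in WT and Actl6b-/- neurons. Both groups compared here are wild type, came from E16.5 embryos and grew for 7 days in vitro before collection. The 7 h group serves in the series as the unstimulated control of cultures that received KCl for 6 h. Each title carries a code: the 2 h group has 3-4, 3-7, 4-2, 4-3 and 4-4, and the 7 h group has the same codes except 4-3. The series describes 5 wild-type biological replicates, but what a code stands for is not stated in the labels.

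Spontaneous firing in cultured cortical neurons opens sodium channels and, through synaptic glutamate, NMDA receptors, and calcium entry through these receptors and through voltage-gated calcium channels drives transcription of activity-dependent genes. TTX stops action potentials and APV stops the NMDA receptor current, so that transcripts kept up by ongoing activity are no longer renewed, with short-lived messages lost before long-lived ones. Longer silencing is known to start slower adjustments of synapses and channels, called homeostatic scaling.

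Measurements are estimated counts for 115270 transcripts. The transcript identifiers were not matched to genes, so the results are given per transcript, by level, length and library. Gene lists and cell type markers were not analysed here, and the neuronal identity of the cultures was not checked against markers. Reads shared by isoforms of a gene were divided among them by the authors' quantification, and a change in 1 isoform may be offset in another.

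The libraries themselves differed between the groups. The 7 h libraries held 4020984 (code 3-4), 3852408 (3-7), 3954245 (4-2) and 3569516 (4-4) estimated counts. The 2 h libraries held 5873349 (3-4), 7322045 (3-7), 7449505 (4-2), 7578714 (4-3) and 6806895 (4-4). Every 7 h library was thus shallower than every 2 h library, and the time in blockers and the library total cannot be told apart in this design.

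At an equal total the 7 h libraries detected more transcripts. After counts were rounded and each library was thinned to 3568975 counts, the 7 h libraries detected 58463 (3-4), 57162 (3-7), 58623 (4-2) and 59154 (4-4) transcripts with a count of 1 or more. The 2 h libraries detected 51450 (3-4), 53181 (3-7), 51580 (4-2), 52518 (4-3) and 52644 (4-4). The groups did not overlap, and the means differed by 6075.9 transcripts (adjusted p = 0.0119, two-sided exact permutation test over 126 divisions, adjusted over 6 library measures). The unadjusted p of 0.00794 is the smallest that 4 against 5 libraries can give. Without thinning, the rounded counts gave 57622 to 59238 transcripts at 7 h and 55084 to 58017 at 2 h, and the difference of 1816.15 did not pass (adjusted p = 0.0714, exact permutation test). With a minimum of 10 counts after thinning, 30180 to 31900 were detected at 7 h and 24043 to 25417 at 2 h.

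The mean transcript length, weighted by counts, was 4867 ± 95.5 bases (SD, n = 4) at 7 h and 4425 ± 68.1 bases (SD, n = 5) at 2 h, again without overlap (adjusted p = 0.0119, exact permutation test). Transcripts shorter than 500 bases also took a larger share at 7 h. Their share was 7.56% (3-4), 8.97% (3-7), 6.38% (4-2) and 5.68% (4-4) of counts at 7 h, and lay between 4.23% and 4.96% at 2 h (adjusted p = 0.0119, exact permutation test). The mean length and the share of the shortest transcripts were thus both higher at 7 h. The gap between transcript length and effective length, which follows the fragment length used by the authors' quantification, was 191 to 212 bases at 7 h and 189 to 206 bases at 2 h and did not differ detectably (adjusted p = 0.5, exact permutation test). The share of counts in the 100 most abundant transcripts was 19.7% to 24.7% at 7 h and 19.4% to 21.1% at 2 h, with overlapping ranges (adjusted p = 0.0857, exact permutation test).

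**Figure D1:**
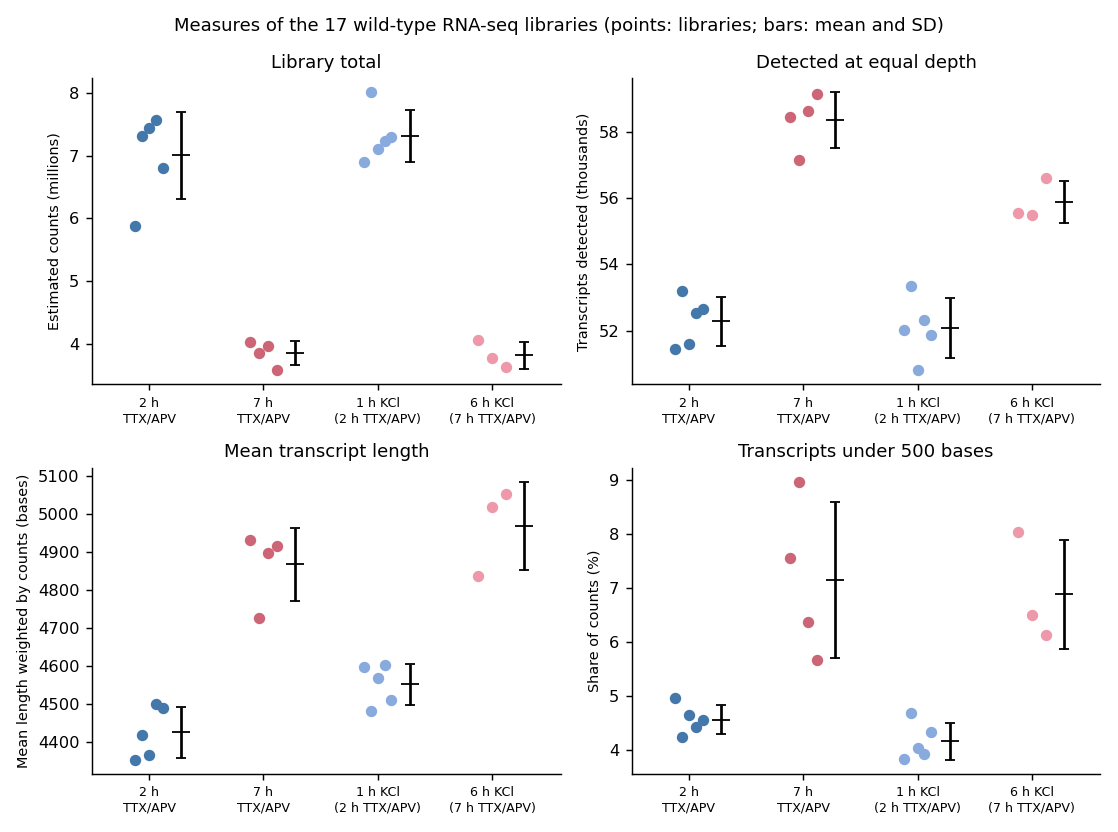
Total estimated counts, transcripts detected after thinning to one total, mean transcript length weighted by counts, and share of counts in transcripts shorter than 500 bases, for the 17 wild-type RNA-seq libraries by group. Points are libraries and bars give the mean and SD; the axes do not start at 0. The 4 libraries with 7 h of TTX/APV lie apart from the 5 with 2 h in each panel, and the 6 h KCl libraries lie on the same side as the 7 h libraries.

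Of 35933 transcripts with enough counts to test, 19402 (54.0%) passed an adjusted p of 0.05 in edgeR's quasi-likelihood test with TMM scaling, which sets the trimmed mean change between libraries to 0. Of those tested, 10161 (28.3%) were higher and 9241 (25.7%) lower at 7 h. The log2 CPM values of the groups did not overlap for 51.0% of the transcripts tested, and for 17339 (89.4%) of those called. The median log2 fold change was -0.03 over all transcripts tested, 1.63 over those called higher and -1.22 over those called lower. The p-values rest on the spread between these libraries, and principal component 1, which held 47.0% of the variance, placed the 7 h libraries at 141.5 to 151.5 and the 2 h libraries at -135.8 to -99.4. Pearson correlations of log2 CPM across transcripts were 0.789 to 0.810 among 7 h libraries, 0.862 to 0.885 among 2 h libraries and 0.642 to 0.686 between the groups.

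The balance of rises and falls changed with their size. A change of 2-fold or more was called for 8630 transcripts that were higher and 5970 that were lower. Without the filter on low counts 86160 transcripts were tested, and the order was the opposite. There were then 6997 higher and 7548 lower of this size, and 7843 higher and 10212 lower of any size. At 4-fold or more the counts were 2819 higher and 1435 lower. At 8-fold or more the order turned, with 314 higher and 524 lower, and at 32-fold or more 37 were higher and 194 lower. The fitted size of the largest changes depends on the prior count where 1 group is near 0. When the test was set against a 2-fold change instead of no change (glmTreat in edgeR), 4571 transcripts passed as higher and 2925 as lower. With all libraries thinned to one total, 16694 of 29894 transcripts tested were called in edgeR, 52.6% of them higher at 7 h.

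The balance of rises and falls depended on the scaling. TMM multiplied the library sizes by 1.12 to 1.22 at 7 h and by 0.864 to 0.916 at 2 h, a mean ratio of 1.32 between the groups. With counts scaled only by library totals, the median log2 fold change was 0.37 and 68.5% of 18976 calls were higher at 7 h, against 52.4% with TMM. The upper quartile gave a median of 0.23 and 62.9% higher, and RLE, the scaling of DESeq2, gave -0.10 and 49.6% higher. Of the TMM calls, 9705 were higher under all 4 scalings and 5979 were lower under all 4. The other 3262 transcripts called lower under TMM were not called lower with library totals, and 41 transcripts were called in opposite directions by some pair of scalings. A scaling shifts all transcripts of a library by the same amount, so it moves the balance and not the difference between classes of transcripts.

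Among tested transcripts, calls in the low level classes were more often higher and calls in the highest class more often lower at 7 h. The tested transcripts were divided into 5 equal classes by mean CPM over the 9 libraries, with 7186 or 7187 in each. From the lowest class to the highest, the median log2 fold change was 0.69, 0.56, 0.28, -0.33 and -0.65. In the lowest class, from 0.866 to 2.70 CPM, 32.1% were called higher and 6.12% lower. In the highest class, from 24.8 CPM upward, 12.9% were higher and 60.8% lower. With library totals the medians were 1.09, 0.96, 0.68, 0.07 and -0.25, a shift that changes the sign of class 4 and by construction leaves the order of the classes. In the highest class 42.1% were then lower and 22.6% higher.

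The same order was found with levels taken from other libraries. With classes set by the 8 KCl-treated wild-type libraries, which are not in the fit, the medians ran from 0.92 in the lowest class to -0.69 in the highest. These classes hold the same tested transcripts, so they do not remove an effect of the filter. A rare transcript can enter the test through the group in which it is high. Of the transcripts tested, 20471 reached the filter's level of 1.70 CPM in 4 or more libraries in both groups. Another 6745 reached it only at 7 h, of which 4879 were called higher and 0 lower, and 5274 only at 2 h, of which 1668 were called lower and 0 higher. The remaining 3443 reached it in 4 or more libraries of neither group, and 32 of them were called higher and 4 lower. Among the 20471 alone, 5250 were higher and 7569 lower, and the medians of their own 5 level classes were 0.32, 0.37, -0.22, -0.52 and -0.70. The lowest classes were thus shifted less among the 20471, with no fall from the first class to the second. The highest class was at a similar value. These classes were cut anew within the 20471, so they do not cover the same levels as those above.

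**Figure D2:**
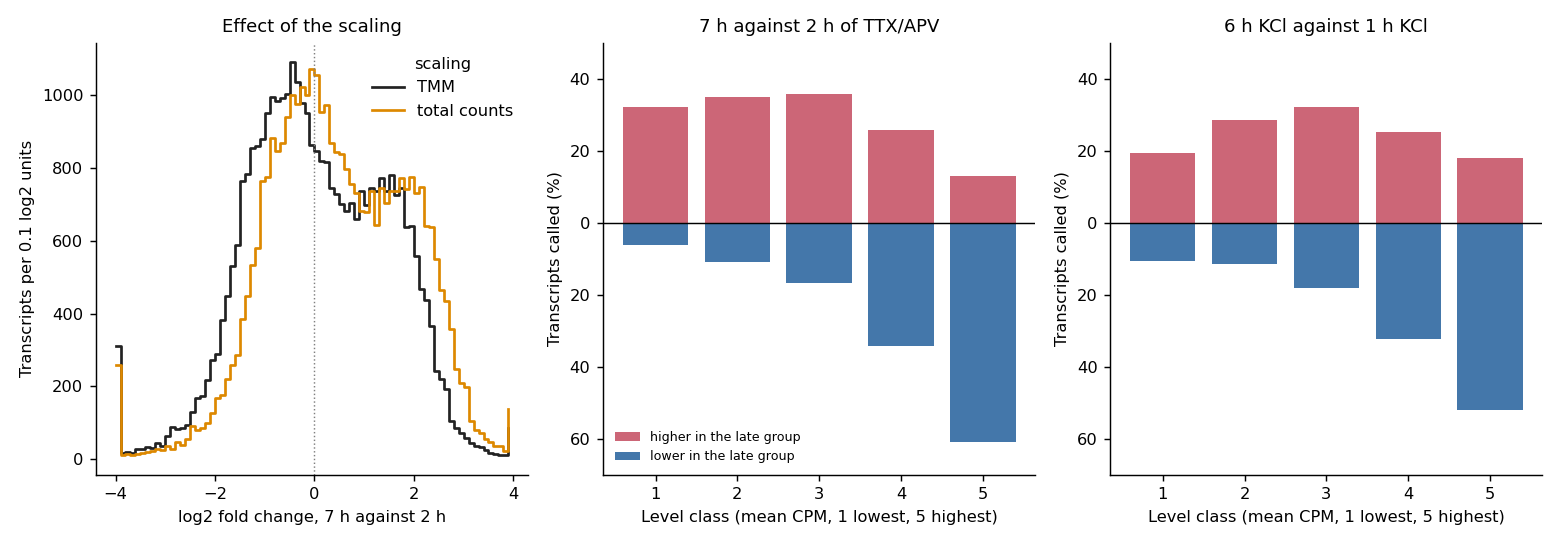
Left, distribution of log2 fold changes of 7 h against 2 h of TTX/APV over 35933 transcripts with TMM scaling and with library totals; the outermost bins hold all changes beyond 4 log2 units. Middle and right, percent of transcripts called higher (above 0) and lower (below 0) in the late group in 5 level classes, for 7 h against 2 h of TTX/APV and for 6 h against 1 h of KCl. Library totals move the whole distribution to the right, and the share called lower grows from 6.12% in the lowest class to 60.8% in the highest without KCl.

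With level classes set by CPM, the change went with transcript length outside the lowest class, with lower medians for shorter transcripts. Over all levels the medians differed little by length, at -0.18 for transcripts under 500 bases, -0.11 from 500, -0.32 from 1000, 0.15 from 2000, -0.04 from 4000 and 0.04 from 8000 bases upward. Within the highest level class, the 71 transcripts under 500 bases had a median log2 fold change of -1.47, and 88.7% were called lower. The 362 transcripts from 500 to 1000 bases had a median of -1.40, and the 742 from 1000 to 2000 bases one of -1.34. The median was -0.85 for 2390 transcripts from 2000 to 4000 bases and -0.49 for 2823 from 4000 to 8000 bases. For the 799 transcripts of 8000 bases or more it was -0.10, with 33.7% lower and 23.8% higher. With TMM and level in CPM, abundant transcripts under 2000 bases were therefore lower by more than 2-fold at the median. The longest were near the median of all transcripts tested.

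With library totals the same length classes had medians of -1.07, -0.996, -0.94, -0.45, -0.08 and 0.30, so that the direction for transcripts of 8000 bases or more depends on the scaling. The gradient was present in each of the 4 codes found in both groups. The per-code median was -1.66 to -1.24 for transcripts under 500 bases and -0.21 to -0.02 for those of 8000 bases or more. With CPM classes the gradient was not particular to the highest class. From transcripts under 500 bases to those of 8000 bases or more, the TMM median went from -1.08 to 0.52 in class 4. It went from -0.57 to 0.54 in class 3 and from -0.17 to 0.75 in class 2. In the lowest level class no such gradient was seen, with medians between 0.55 and 0.88 in the 6 length classes. Level in CPM favours long transcripts, since a longer molecule yields more fragments. When level classes were set by TPM, which divides by effective length, the highest class still had a median of -0.85, but the order by length was different. Its medians were -0.50 under 500 bases, -0.93 from 500, -1.23 from 1000, -0.94 from 2000, -0.67 from 4000 and -0.36 from 8000 bases upward. In the highest class, the rise in the median from 1000 bases upward was present with both measures of level, and that below 1000 bases was not. In TPM class 4 the median was 0.44 under 500 bases, -0.63 from 1000 and -0.03 from 8000 bases upward. In TPM class 3 these medians were 0.63, -0.09 and 0.31. TPM class 2 had 0.45 from 500 and 0.42 from 8000 bases upward. In classes 2 to 4 the shortest transcripts thus had lower medians than the longest only with CPM classes.

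The increase in the share of counts from transcripts under 500 bases went along with 1 transcript. The most abundant transcript of the 9 libraries is 449 bases long and took 2.42% to 3.27% of counts at 2 h and 3.97% to 7.40% at 7 h. These shares did not overlap, while its TMM-scaled CPM values did. Its log2 fold change was 0.55 (SE 0.19, adjusted p = 0.0359 in edgeR). The 10 most abundant transcripts of each library held 10.3% to 15.2% of counts at 7 h and 8.38% to 9.68% at 2 h (adjusted p = 0.0132, exact permutation test over 5 such shares). Of the 10 most abundant over the 9 libraries, 2 were called higher and 3 lower, and their log2 fold changes lay between -2.34 and 0.56. Among the 100 most abundant, 7 were higher and 63 lower, with a median of -0.58. This is near the whole highest level class, with 12.9% higher, 60.8% lower and a median of -0.65.

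Below this small top, counts were spread over more transcripts at 7 h. The 10000 most abundant transcripts of each library held 80.6% to 82.6% of counts at 7 h and 86.7% to 87.99% at 2 h (adjusted p = 0.0132, exact permutation test). The number of transcripts that together held 50% of counts was 1620 ± 182 (SD, n = 4) at 7 h and 1284 ± 57.6 (SD, n = 5) at 2 h (p = 0.00794, two-sided exact permutation test). It was 1572 (3-4), 1400 (3-7), 1677 (4-2) and 1832 (4-4) at 7 h, and 1241 (3-4), 1371 (3-7), 1234 (4-2), 1261 (4-3) and 1313 (4-4) at 2 h. Code 3-7 was the lowest of the 7 h libraries and the highest of the 2 h libraries.

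Few transcripts were seen in 1 group alone. A rounded count of 0 in all 5 libraries at 2 h and of 1 or more in all 4 at 7 h was found for 274 of 115270 transcripts, although the 7 h libraries were shallower. The reverse was found for 255. After thinning to one total the numbers were 581 and 209.

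Of the transcripts called with a 2-fold change or more, a mean of 10 CPM or more, a group mean of 1 CPM or more in both groups and no overlap, 1622 were higher and 3765 lower at 7 h. The floor of 10 CPM leaves mainly level classes 4 and 5, where calls were more often lower. Of all transcripts tested, 25.7% were called higher and 34.2% lower in class 4, and 12.9% and 60.8% in class 5. The excess of falls is therefore not a result apart from level. The 12 largest rises had log2 fold changes of 3.15 to 4.35 and lengths of 420 to 11667 bases. The 12 largest falls had log2 fold changes of -5.82 to -4.26 and lengths of 655 to 7924 bases. The first 2 in each direction are described with the CPM of each library, scaled over the 17 wild-type RNA-seq libraries.

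ENSMUST00000233031.1, of 11667 bases, had 0 (3-4), 4.99 (3-7), 1.32 (4-2), 2.56 (4-3) and 0 (4-4) CPM at 2 h. At 7 h it had 21.0 (3-4), 31.6 (3-7), 36.1 (4-2) and 42.8 (4-4) CPM. Every 7 h library was above every 2 h library, with a log2 fold change of 4.35 (SE 0.87, adjusted p = 0.00263 in edgeR). It averaged 1.84 ± 0.71 CPM (SD, n = 5) with 1 h of KCl and 3.30 ± 2.23 CPM (SD, n = 3) with 6 h of KCl, where the log2 fold change of 6 h against 1 h was 0.97 (adjusted p = 0.146 in edgeR). The difference between the comparisons did not pass either (log2 difference -3.38, adjusted p = 0.0932 in edgeR).

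ENSMUST00000180360.7, of 4971 bases, had 9.78 (3-4), 0.000678 (3-7), 0.125 (4-2), 0.00592 (4-3) and 0.00771 (4-4) CPM at 2 h. At 7 h it had 29.8 (3-4), 44.5 (3-7), 30.2 (4-2) and 10.8 (4-4) CPM. The values far under 1 CPM are fractions of an estimated count, and 1 library at 2 h stood just under the lowest library at 7 h. The log2 fold change was 4.10 (SE 1.35, adjusted p = 0.0282 in edgeR), but the call was lost in 6 of 22 alternatives, where the adjusted p reached 0.0979. Leaving out a single library (2 h code 4-2, or 7 h code 3-4, 3-7 or 4-2) ended it, with adjusted p of 0.0530, 0.0564, 0.0707 and 0.0564 in edgeR. The log2 fold change stayed between 3.77 and 4.10 in the alternatives that lost the call. Without 2 h code 3-4 it was 9.05 (adjusted p = 5.91e-05 in edgeR). The transcript was near 0 in the KCl libraries, at 0 to 0.00369 CPM with 1 h of KCl and 0 to 0.305 CPM with 6 h of KCl. It was not tested in that pair. The interaction could not show a difference (log2 difference -1.80, SE 7.56, adjusted p = 0.940 in edgeR).

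ENSMUST00000109923.8, of 2940 bases, had 62.1 (3-4), 83.7 (3-7), 75.8 (4-2), 72.5 (4-3) and 85.3 (4-4) CPM at 2 h. At 7 h it had 0 (3-4), 0.000294 (3-7), 0.364 (4-2) and 4.23 (4-4) CPM. The transcript was thus at 4.23 CPM or less in all 4 libraries at 7 h, and its log2 fold change was -5.82 (SE 0.81, adjusted p = 3.48e-04 in edgeR). Without 7 h code 4-4 it was -8.80, so the size of this fall rests largely on that library. It was not low after 6 h of KCl in 7 h of TTX/APV, where it averaged 57.0 ± 13.3 CPM (SD, n = 3), against 73.8 ± 12.9 CPM (SD, n = 5) after 1 h of KCl (log2 fold change -0.22, adjusted p = 0.355 in edgeR). The difference between the comparisons was 5.60 log2 units (adjusted p = 2.99e-04 in edgeR).

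ENSMUST00000022469.12, of 5559 bases, had 222 (3-4), 311 (3-7), 251 (4-2), 270 (4-3) and 243 (4-4) CPM at 2 h. At 7 h it had 0.000662 (3-4), 0.00219 (3-7), 5.51 (4-2) and 12.7 (4-4) CPM. The groups lay far apart, with a log2 fold change of -5.63 (SE 0.86, adjusted p = 5.69e-04 in edgeR). It was also lower after 6 h of KCl, at 23.7 ± 15.4 CPM (SD, n = 3), than after 1 h of KCl, at 306 ± 51.8 CPM (SD, n = 5), with a log2 fold change of -3.54 (adjusted p = 5.98e-04 in edgeR). The levels of such transcripts are those of single isoforms as assigned by the authors' quantification.

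**Figure D3:**
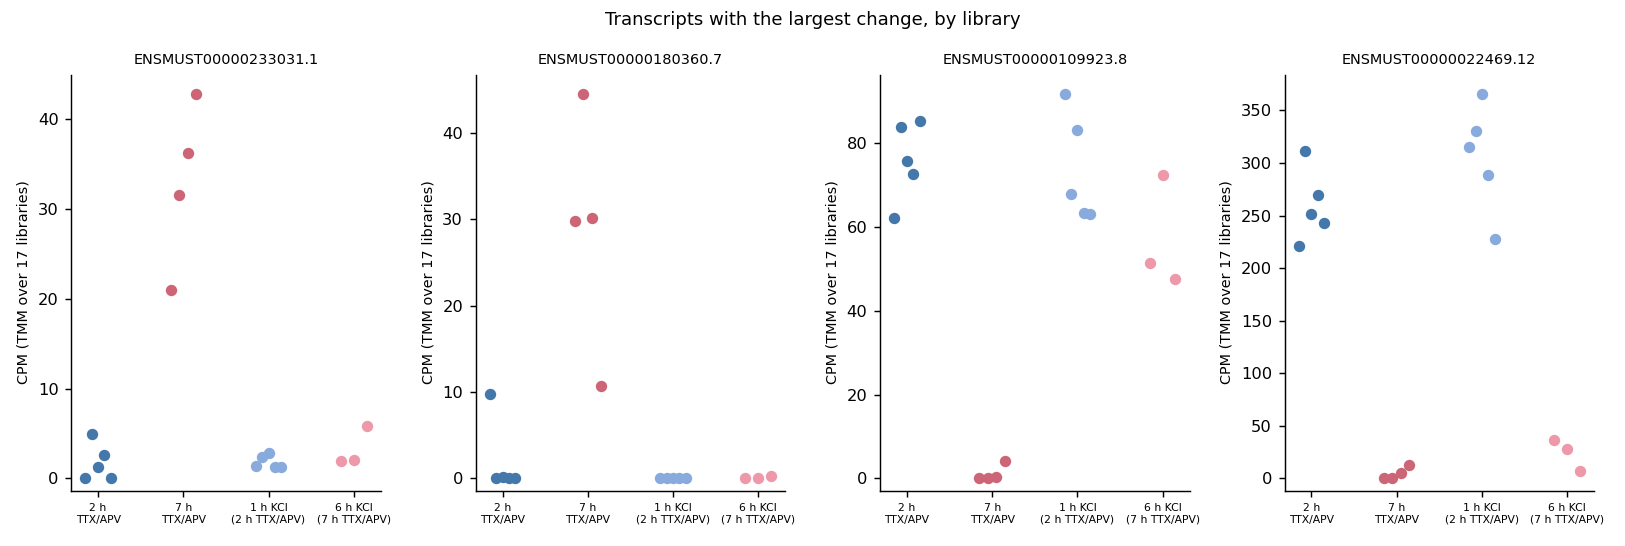
CPM, scaled by TMM over 17 libraries, of the transcripts with the largest rises (left pair) and falls (right pair) at 7 h of TTX/APV, with 1 point per library in the 4 wild-type groups. ENSMUST00000109923.8 is at 4.23 CPM or less in all 4 libraries with 7 h of TTX/APV and no KCl, at 47.5 to 72.3 CPM in the 3 libraries with 6 h of KCl, and at 62.1 to 85.3 CPM at 2 h.

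The changes were seen in each code. For codes 3-4, 3-7, 4-2 and 4-4, the 7 h library was compared with the 2 h library of the same code. Of the 35933 transcripts, 12045 were higher at 7 h in all 4 codes and 11332 lower in all 4, together 65.1%. Of the 19402 called, 18851 (97.2%) had the same direction in all 4 codes. The median difference of the lowest level class was 0.72 (3-4), 0.53 (3-7), 0.70 (4-2) and 0.63 (4-4) log2 units. That of the highest class was -0.63 (3-4), -0.57 (3-7), -0.69 (4-2) and -0.65 (4-4). Code 3-7 had the smallest shift at both ends. Within codes that start with 3, with 2 libraries against 2, the medians of these classes were 0.66 and -0.61, and within codes that start with 4, with 2 against 3, they were 0.70 and -0.68. These values describe libraries that are also in the test.

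A further pair of wild-type groups differs in the same hours of blockade. Cultures with 6 h of KCl had 7 h of TTX/APV and those with 1 h of KCl had 2 h, and none of these 8 libraries is in the comparison above, although their codes recur. KCl depolarises neurons directly and admits calcium through voltage-gated channels, so this pair also differs in the time of stimulation. The 6 h KCl libraries held 3627450 to 4051922 estimated counts and the 1 h KCl libraries 6902985 to 8015063. Late and early libraries thus differed in depth in both pairs, and the part of depth or library set in the changes shared by the pairs cannot be told apart from that of time.

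Of 37852 transcripts tested, 18739 (49.5%) were called between 6 h and 1 h of KCl, with 9334 (24.7%) higher and 9405 (24.8%) lower in the late group. In the 33182 transcripts tested in both pairs, 6384 were higher in the late group of both, which is 71.4% of those higher at 7 h of TTX/APV and 76.6% of those higher at 6 h of KCl. These shares leave out transcripts not tested in the other pair. Of the 10161 transcripts higher at 7 h, 8947 were tested in both pairs, and of the 9241 lower, 9189 were. The shares of rises and falls are therefore not compared with each other. Of all transcripts tested in both, 25.1% were higher at 6 h of KCl. Those lower in the late group of both numbered 6274, which is 68.3% of those lower at 7 h and 69.4% of those lower at 6 h of KCl, beside 27.2% of all. With the code as a replicate block the KCl pair had 8872 calls, and 2832 transcripts were higher and 3698 lower in the late group of both pairs. Opposite calls, without the block, were made for 407 transcripts, 158 higher at 7 h of TTX/APV and lower at 6 h of KCl and 249 the other way.

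The sizes of the changes ran in parallel. Across the 33182 transcripts, which are not independent, the log2 fold changes of the pairs had a Pearson correlation of 0.663 and a Spearman correlation of 0.741, given as a description of libraries with shared codes and a shared gap in depth. Transcripts called higher at 7 h had a median log2 fold change of 1.59 in the pair without KCl and 1.59 in the KCl pair. Those called lower had -1.22 and -1.04, and the median of the KCl pair over all was -0.15. Library measures of the KCl pair lay on the same sides: 55493 to 56601 transcripts were detected after thinning at 6 h of KCl and 50794 to 53341 at 1 h, and the share of counts under 500 bases was 6.13% to 8.03% and 3.84% to 4.68%.

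**Figure D4:**
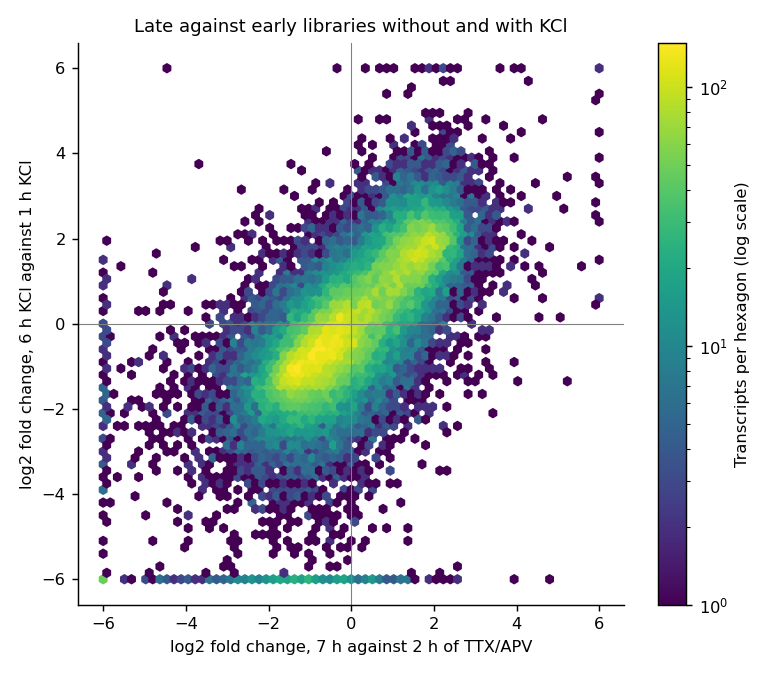
Log2 fold change of 6 h against 1 h of KCl plotted against that of 7 h against 2 h of TTX/APV for 33182 transcripts tested in both; colour gives transcripts per hexagon on a log scale, and changes beyond 6 log2 units are drawn at 6. Most transcripts lie along a rising band with a Pearson correlation of 0.663, and a smaller number lie off it along both axes.

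The KCl pair also had the pattern by level and by length. In its own 5 level classes the median log2 fold changes were 0.20, 0.49, 0.25, -0.29 and -0.52. The lowest class thus did not have the highest median, in contrast to the pair without KCl. In the highest class, the medians by length were -0.99 under 500 bases, -0.88 from 500, -0.94 from 1000, -0.64 from 2000, -0.39 from 4000 and -0.04 from 8000 bases upward. The values for short abundant transcripts were nearer 0 than without KCl, a difference that was not tested.

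**Figure D5:**
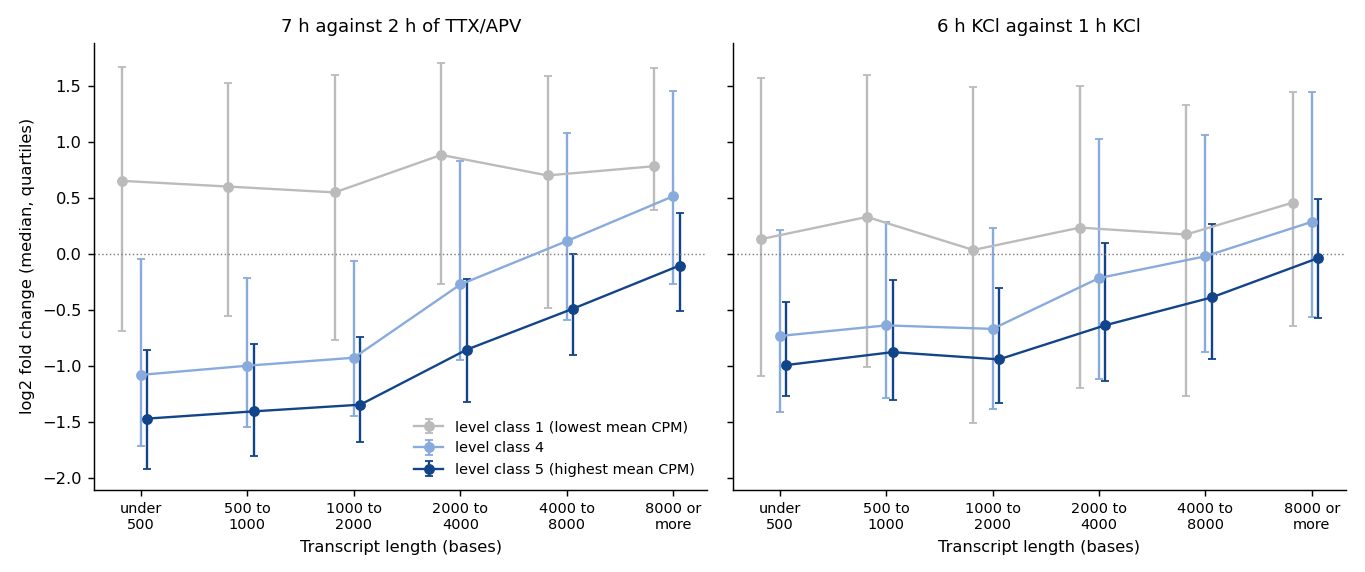
Median log2 fold change with quartiles in 6 classes of transcript length, for 7 h against 2 h of TTX/APV (left) and 6 h against 1 h of KCl (right). Lines give the lowest level class, class 4 and the highest class, all set by mean CPM. In the highest class the median goes from -1.47 under 500 bases to -0.10 from 8000 bases upward without KCl and from -0.99 to -0.04 with KCl. Class 4 goes from -1.08 to 0.52 without KCl and from -0.73 to 0.29 with KCl, while the lowest class has no such slope.

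The difference between late and early libraries itself differed with KCl for a smaller number of transcripts. An interaction test over the 4 wild-type groups called 4052 of 46790 transcripts (8.66%) in edgeR, 2170 with a more positive change in the KCl pair and 1882 with a more negative one. This split depended on the scaling: 53.6% of calls were more positive with TMM and 35.9% with library totals. Among the 24 transcripts with the largest changes without KCl, it called 2 of the 12 rises and 2 of the 12 falls. In the KCl pair 11 of the 12 rises were tested and 8 were called higher, and all 12 falls were tested and 7 were called lower. Over all transcripts tested in both pairs, 71.4% of the rises and 68.3% of the falls were called the same way, so these few say nothing particular. In the KCl pair, the log2 fold changes of the tested rises ranged from -0.07 to 4.48 and those of the falls from -6.26 to -0.10. These 24 were chosen for their change without KCl, so smaller values in the KCl pair are not evidence of a smaller effect.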

How the data were processed

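Per the labels' protocols, total RNA extracted with TRIzol went into a stranded total RNA kit. The deposited files give estimated counts, TPM, length and effective length per transcript, per the file headers. Tools listed in the submitters' processing notes include kallisto 0.44.0, Trim Galore and DESeq2, without roles, and the transcript annotation used is not stated there.

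Estimated counts were rounded and tested per transcript, since 0 of 115270 identifiers matched the gene tables used here, although tests per gene were planned. Tests used edgeR 4.0.16 in R 4.3.3 (quasi-likelihood, robust, TMM, filterByExpr) with Benjamini-Hochberg adjustment over all transcripts tested and a threshold of 0.05. Only the groups compared entered each fit. Log2 CPM used a prior count of 2. Standard errors are the log2 fold change over the square root of F. The test was tried on simulated counts with few changed transcripts and less spread than these data. That trial does not give its error rate here. No 2 libraries held identical values. Named transcripts follow the rule in the report, and of each direction the first 2 are printed. The comparison, lists and rules were chosen with earlier results of these data known. Alternatives included DESeq2 1.42.0, other scalings and filters, thinning, a replicate block and fits without single libraries. Other cuts for detection, classes combining level with length, levels from TPM or KCl libraries, and the most abundant transcripts were added after seeing the data.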

Additional observations from a re-analysis of the deposited data

Results flagged for a closer look

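Among 20 groups of values examined for a library standing apart from its group by the Dixon gap, 3 did so. Chance gives about 1 in 20 for normally distributed values. The flagged transcripts were near 0 CPM in the other libraries of the group and were chosen for large changes. The number flagged was not tested against chance, and no excess is claimed. The count-weighted mean length of the 7 h library with code 3-7 was 4726 bases, below the 4897 to 4932 bases of the other 7 h libraries. ENSMUST00000180360.7 had 9.78 CPM in the 2 h library with code 3-4 and 0.000678 to 0.125 CPM in the others. ENSMUST00000109923.8 had 4.23 CPM in the 7 h library with code 4-4 and 0 to 0.364 CPM in the others.

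The change between late and early libraries differed with KCl for 4052 of 46790 transcripts (8.66%) by an interaction test in edgeR. Of the same 46790, 9994 had an unadjusted p under 0.05 in that test. A transcript without a call was not shown to change alike in both pairs. For ENSMUST00000109923.8 the difference was 5.60 log2 units.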

How the results depend on the processing

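Against a 2-fold change (glmTreat), 7496 transcripts were called, 4571 higher and 2925 lower, and the same 4571 and 2925 stand for 2-fold or more. With library totals 5979 were lower, 3126 of them 2-fold or more, and 4073 were lower in both pairs. The median log2 fold change was 0.37 with library totals, -0.10 with RLE, 0.23 with the upper quartile, -0.038 after thinning and -0.10 with DESeq2, and -0.057 to -0.019 leaving out single libraries. Medians by length from the shortest class were 0.22, 0.28, 0.084, 0.55, 0.36 and 0.44 with library totals. Leaving out single libraries, they were -0.18 to -0.11 from 500 bases, 0.12 to 0.16 from 2000 and -0.079 to -0.018 from 4000. The lowest level class had a median of 1.09 with library totals, 0.83 with the block and 1.19 after thinning, and the highest -0.25 with library totals and -0.55 after thinning. Within the highest class, library totals gave -1.07 under 500 bases and 0.30 from 8000 bases, where thinning gave 0.0052. Detected transcripts differed by 1816.15 without thinning. The difference in the share of the 100 most abundant transcripts was 1.07 to 2.74 percentage points leaving out single libraries, with adjusted p of 0.0214 (exact permutation test, without 7 h code 4-4) to 0.236.

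Codes did not pair the samples in the data: deviations from group means correlated at -0.02 to 0.04 for the same code and -0.04 to 0.07 for other codes. With the code as a replicate block, 15364 transcripts were called at 7 h against 2 h. In the KCl pair the block gave 8872 calls, 3969 higher and 4903 lower, and calls in both pairs were 2832 higher and 3698 lower.

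Other alternatives left counts within 1.5 times the reported value: 17413 to 18597 calls leaving out single libraries, 16694 after thinning to equal depth and 20468 with DESeq2. With no filter there were 18055 calls, of which 43.4% were higher. These were among 86160 transcripts tested, against 35933 with the filter, so the share called was smaller. In the 6 h and 1 h KCl pair the share higher was 58.7% with library totals against 49.8%, and in the interaction 35.9% against 53.6%. Rare transcripts are limited by the depth of the 7 h libraries.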

Other observations

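Measures of how counts were spread over transcripts differed in whether the KCl pair followed 7 h against 2 h of TTX/APV. The 10000 most abundant transcripts of each library held 83.6% to 85.5% of counts at 6 h of KCl and 87.5% to 88.3% at 1 h of KCl, without overlap and on the same sides as without KCl. The number of transcripts that held 50% of counts was 1146 (3-7), 1321 (4-2) and 1431 (4-4) at 6 h of KCl, around the 1293 to 1364 at 1 h of KCl. The 1000 most abundant transcripts of each library held 41.1% to 45.5% of counts at 7 h of TTX/APV and 44.9% to 46.6% at 2 h, but 44.5% to 48.0% at 6 h of KCl and 44.8% to 45.7% at 1 h of KCl. The difference between the pairs was not tested.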
